A study of Mus musculus with 4 samples.

Results

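The miR-200 family (miR-200a, miR-200b, miR-200c, miR-141 and miR-429), the miR-183 cluster (miR-182, miR-183 and miR-96) and miR-205 were followed in small RNA libraries of mouse sperm. A sequence was taken as a member when it was at least 18 nt long and its deposited annotation named only these hairpins, with copy numbers removed. All 9 hairpins were found, out of 389 miRNA hairpin labels with reads of that length, and they were covered by 79 distinct sequences. Every member sequence carried the same annotation in each file that held it, and no joint label contained a member. The definition uses names and length and no measured value, although the members were chosen with earlier results of these data known.

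The 2 Mdd libraries came from C57BL mice that met a changing daily stressor, among them cage tilt, damp bedding, white noise, strobe light, restraint, isolation and a disturbed light cycle. The 2 control libraries came from C57BL mice left alone apart from feeding and cleaning. The question of the study was which small sperm RNAs differ in mice with depressive-like behaviour after such stress. The labels' protocol describes RNA from sperm, whereas the tissue and cell type fields name testis and testicular cells, and the sources used here give no age and no number of animals behind a library. Since no label ties a replicate to an animal of its own, p-values reflect only how far these samples lie apart, which may have technical origins.

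MicroRNAs of the miR-200 family are abundant in epithelial cells of many organs, where they repress the transcription factors Zeb1 and Zeb2 and so keep cells epithelial. The miR-183 cluster is best known from sensory cells of the eye and ear and is also found in other epithelia, and miR-205 is typical of stratified and basal epithelium. Sperm mature while they pass through the epididymis, a duct lined by epithelium, and are known to take up small RNA from it. These miRNAs are shared by many epithelia and do not by themselves name the epididymis.

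The miR-200 family falls into groups by its seed, bases 2 to 8 of the mature RNA, which largely set its targets. The main arms are shown because the family relation, and later the 3′ ends, are read from them. Sequences are RefSeq mature miRNAs (build GRCm38.p6), 5′ to 3′, with the seed in capitals. The first 3 share one seed and the next 2 share another. The 3 arms of the miR-183 cluster have similar but distinct seeds, and miR-205-5p has its own.
miR-200b-3p: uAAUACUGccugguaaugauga
miR-200c-3p: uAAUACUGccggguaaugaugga
miR-429-3p: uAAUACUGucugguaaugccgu
miR-200a-3p: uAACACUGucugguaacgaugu
miR-141-3p: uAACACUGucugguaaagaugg
miR-183-5p: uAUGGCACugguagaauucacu
miR-96-5p: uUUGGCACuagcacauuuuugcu
miR-182-5p: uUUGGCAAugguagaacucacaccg
miR-205-5p: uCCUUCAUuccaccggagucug

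All hairpins lie on the minus strand of GRCm38.p6. miR-200b (chr4:156055681-156055750), miR-200a (chr4:156054896-156054985) and miR-429 (chr4:156053905-156053987) form a cluster of 1846 bp. It lies within introns of the protein-coding gene Ttll10 on the same strand, and miR-429 also overlaps an exon of the noncoding transcript Gm13648. miR-200c (chr6:124718322-124718390) and miR-141 (chr6:124717914-124717985) lie within 477 bp, in an intron of the noncoding gene Gm15884, and miR-141 also overlaps an exon of the transcript Gm29008. miR-183 (chr6:30169668-30169737), miR-96 (chr6:30169446-30169551) and miR-182 (chr6:30165918-30165992) span 3820 bp with no annotated gene over them. miR-205 (chr1:193507463-193507530) lies in an exon of the long noncoding RNA 4631405K08Rik.

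Reads of 18 nt or longer numbered 23748630 and 23806805 in Mdd replicates 1 and 2, and 9706895 and 16763277 in control replicates 1 and 2. Of these, 198947 and 94011 carried a miRNA label in Mdd, and 71902 and 263748 in control. The usual copy number of a distinct sequence was 39 and 8 in the Mdd libraries and 6 and 10 in the control libraries. Reads are therefore not independent molecules. The Wilson intervals given below take every read as independent, so they are too narrow even for counting error. The germ cell miRNA list (miR-34b, miR-449a, the X-linked cluster and others) had the highest sum of the lists compared in every library, at 375648 and 280467 CPM in Mdd and 334330.1 and 162784 CPM in control, where CPM is counts per 1000000, taken over the miRNA reads of 18 nt or longer. Control replicate 2 stood apart from the other 3 libraries. Striated muscle miRNAs summed to 1488 and 989 CPM in Mdd replicates 1 and 2, and to 3880.3 and 65737 CPM in control replicates 1 and 2. Blood miRNAs summed to 59920.5 and 50335 CPM in Mdd and to 46967 and 6548 CPM in control. Most of this was miR-451a, with 57508 and 47782 CPM in Mdd and 45520 and 5608 CPM in control. miR-150 and miR-223 of the same list were instead highest in control replicate 2, at 550 and 193 CPM. In bulk RNA, fewer cells of a type and less RNA per cell cannot be told apart.

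The 9 members together held 2354 and 2184 reads in Mdd, and 867 and 5532 reads in control. This was 11832 CPM (95% Wilson interval 11366 to 12317) and 23231 CPM (22288 to 24214) in Mdd replicates 1 and 2. It was 12058 CPM (11286 to 12882) and 20975 CPM (20435 to 21528) in control replicates 1 and 2. The members therefore made up between 1.18% and 2.32% of miRNA reads, with replicate 2 of each group above replicate 1 and the groups overlapping. The means were 17532 ± 8060.3 CPM in Mdd and 16516 ± 6305 CPM in control (SD, n = 2 each), a ratio of 1.06. Without control replicate 2 the log2 ratio was 0.54, and without Mdd replicate 2 it was -0.48, against 0.09 with all libraries. In CPM of all reads of 18 nt or longer, whatever their RNA class, the sum was 99.1 and 91.7 in Mdd and 89.3 and 330.0 in control, which turned the log2 ratio to -1.14. The miRNA share of reads was 0.838% and 0.395% in Mdd and 0.741% and 1.57% in control, and so was also largest in control replicate 2.

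**Figure D1:**
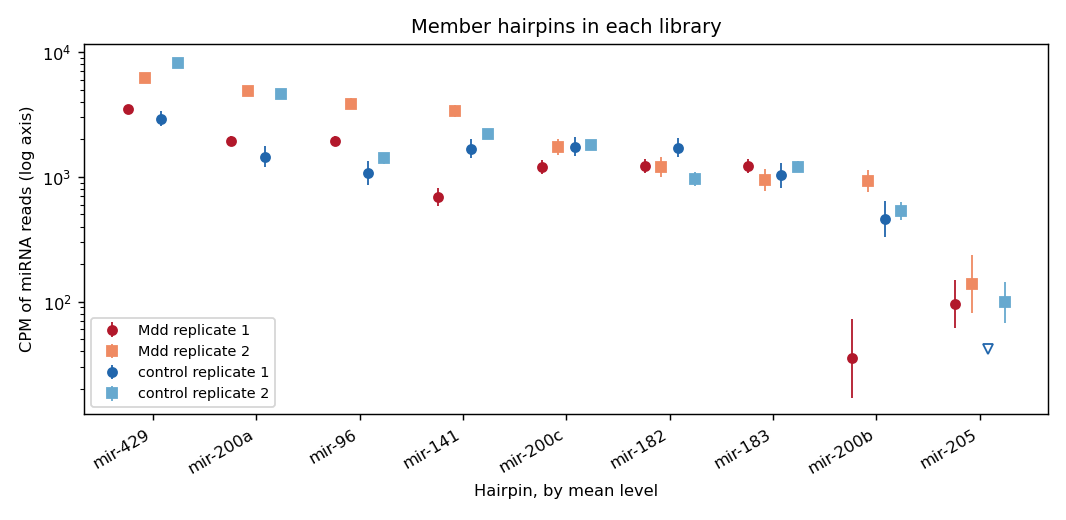
Level of each member hairpin in each library, in CPM of miRNA reads on a log axis. Bars are the 95% Wilson interval, which takes every read as independent and is too narrow. An open triangle marks the limit that a count of 0 allows. miR-429 was the most abundant member in both Mdd and both control libraries, miR-200b was near 35.2 CPM in Mdd replicate 1 alone, and miR-205 had 0 fully matching reads in control replicate 1.

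miR-429 (mmu-mir-429), which shares its seed with miR-200b and miR-200c, was the most abundant member, with a rank of 44 among all hairpin labels by mean level. It had 3493 and 6201 CPM in Mdd, and 2921 and 8152 CPM in control (4847 ± 1915 and 5536 ± 3699 CPM, SD, n = 2 each). Replicate 2 was the higher library in both groups and the groups overlapped. miR-200c (mmu-mir-200c), which is encoded apart from miR-429 but has the same seed, had 1191 and 1734 CPM in Mdd and 1738 and 1809 CPM in control (1463 ± 384 and 1774 ± 49.5 CPM). Both Mdd values lay below both control values, with the second Mdd library and the first control library within their counting intervals of each other. Over the 4 libraries miR-200c varied by a factor of 1.52 between the lowest and the highest, against 2.79 for miR-429. miR-200b (mmu-mir-200b) had 35.2 and 925 CPM in Mdd and 459 and 531 CPM in control, the widest range of the members with reads everywhere, a factor of 26.3. The low value of miR-200b in Mdd replicate 1 rests on 7 reads, below the usual 39 copies of a sequence in that library. Its cluster neighbours miR-200a and miR-429 had 386 and 695 reads there, so the 3 hairpins of 1 cluster were read very unequally in that library. Counted together, this seed group held 39.9% and 38.1% of member reads in Mdd, and 42.4% and 50.02% in control.

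miR-200a and miR-141 share the other miR-200 seed. miR-200a (mmu-mir-200a) had 1940.2 and 4893 CPM in Mdd and 1446 and 4614 CPM in control (3417 ± 2088 and 3030.3 ± 2240.0 CPM). miR-141 (mmu-mir-141) had 694 and 3361 CPM in Mdd and 1683 and 2188 CPM in control (2027 ± 1886 and 1935 ± 357 CPM). For both hairpins the Mdd libraries lay further apart than the group means, and the highest value was in Mdd replicate 2. miR-141 ranged over a factor of 4.85 and its partner miR-200c over 1.52, although the 2 hairpins lie close together on chromosome 6.

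Within the miR-183 cluster, miR-183 and miR-182 varied less than miR-96. miR-183 (mmu-mir-183) had 1216 and 947 CPM in Mdd and 1029 and 1209 CPM in control (1082 ± 191 and 1119 ± 127 CPM), a factor of 1.28 between the extremes. miR-182 (mmu-mir-182) had 1226 and 1191 CPM in Mdd and 1711 and 959 CPM in control (1209 ± 24.8 and 1335 ± 531 CPM). Both Mdd values of miR-182 lay between the control values. miR-96 (mmu-mir-96) had 1940.2 and 3840.0 CPM in Mdd and 1071 and 1414 CPM in control (2890.1 ± 1343 and 1243 ± 243 CPM). It was the only member with both Mdd libraries above both control libraries, and it held 16.4% and 16.5% of member reads in Mdd against 8.88% and 6.74% in control. miR-205 (mmu-mir-205) was near the limit of detection, at 95.5 and 138 CPM in Mdd, from 19 and 13 reads, and at 0 and 98.6 CPM in control, from 0 and 26 reads. For reads that match the hairpin throughout, a count of 0 in control replicate 1 allows up to 41.7 CPM, or 250.3 CPM when multiplied by the usual copy number. That library held 7 reads (97.4 CPM) of miR-205-5p with an added 3′ base that does not match the hairpin. A difference of miR-205 between the libraries was not detectable at this depth.

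A fit over all miRNA hairpins gave no member that differed between Mdd and control. With edgeR's quasi-likelihood test 0 of 236 tested hairpins, or 0%, passed an adjusted p of 0.05, while 11 (4.66%) had an unadjusted p below it. DESeq2 called 7 (2.97%), and none of these was a member. All 9 members entered the fit. With edgeR 0 of them had an unadjusted p under 0.05. The lowest was that of miR-96, with a log2 fold change of 1.22 (SE 0.78, adjusted p = 0.952 with edgeR). Its sign stayed positive in every alternative run, from 0.06 with the library size of all RNA classes to 1.57 without Mdd replicate 1, with adjusted p-values between 0.475 and 0.9999. The fitted log2 fold changes were 1.08 (SE 2.39) for miR-205, 0.12 (SE 0.82) for miR-200a and 0.05 (SE 0.89) for miR-141. They were -0.01 (SE 0.92) for miR-183, -0.06 (SE 0.88) for miR-182, -0.08 (SE 1.58) for miR-200b, -0.23 (SE 0.75) for miR-429 and -0.25 (SE 0.80) for miR-200c. Adjusted p-values of these 8 were 0.992 to 0.998 with edgeR. The value of miR-205 was 0.12 without control replicate 1 and 6.84 without control replicate 2, where the remaining control library holds 0 reads and the fitted value depends on the prior count.

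**Figure D2:**
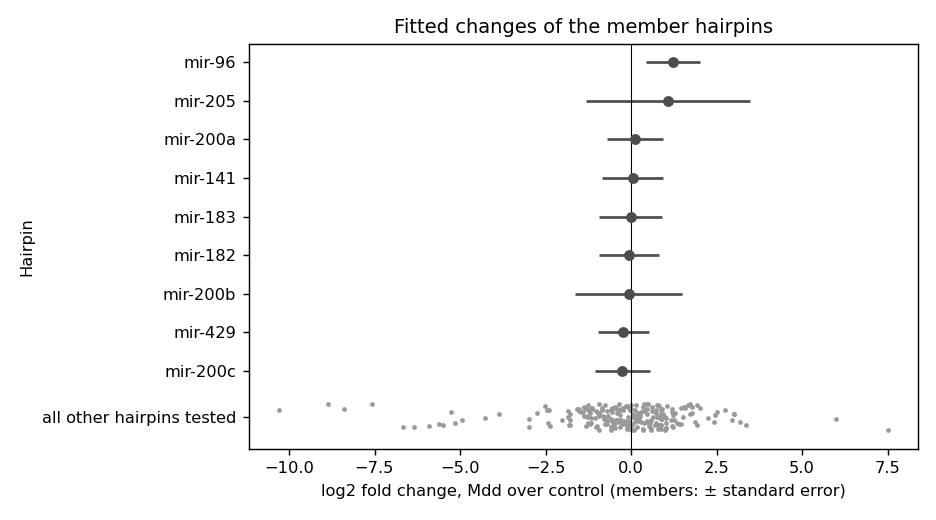
Fitted log2 fold change of Mdd over control for each member hairpin, with its standard error, above the values of all other hairpins tested. The members lay between -0.25 and 1.22, and each error bar except that of miR-96 crosses 0.

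Of the 9 members, 4 had positive and 5 negative fold changes, against 113 positive (47.9%) and 123 negative among all 236 hairpins. The number of positive members was 6 with RLE scaling or DESeq2 and 1 with the library size of all RNA classes, which moved the median of all hairpins to -1.10. The members' median was -0.01 and that of all hairpins -0.04. The median size of the change, regardless of sign, was 0.12 for the members and 0.84 for all hairpins, and the median SE was 0.88 and 1.32. Both Mdd libraries lay above both control libraries for 1 of 9 members, miR-96, and for 16.5% of all hairpins tested. They lay below both control libraries for 1 of 9 members, miR-200c, and for 21.6% of all hairpins tested. Neither share is evidence of a change in the members. An SE of 0.88 on the log2 scale is wide, and a p that misses the threshold does not show that the levels were equal.

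Other epithelial and glandular miRNAs were set beside the members. miR-375, known from endocrine and secretory epithelium, had 12471 and 8669 CPM in Mdd and 12183 and 5319 CPM in control. miR-192, abundant in gut and kidney epithelium, had 2006 and 2436 CPM in Mdd and 904 and 686 CPM in control. miR-194, which is encoded beside miR-192, had 70.4 and 2968 CPM in Mdd and 1085 and 186 CPM in control. miR-203, of skin epithelium, had 422 and 170.2 CPM in Mdd and 0 and 98.6 CPM in control. All 4 had positive fitted fold changes (median log2 1.43, against -0.04 over all hairpins), which became 3 of 4 with the library size of all RNA classes, without Mdd replicate 2 and without control replicate 2. With edgeR 0 of 4 passed the test, and the sum was lowest in control replicate 2. The sum of this list was 14969 and 14243 CPM in Mdd and 14172 and 6290.1 CPM in control, so its order over the libraries was not that of the members. miR-215 of the same list had no label with reads.

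**Figure D3:**
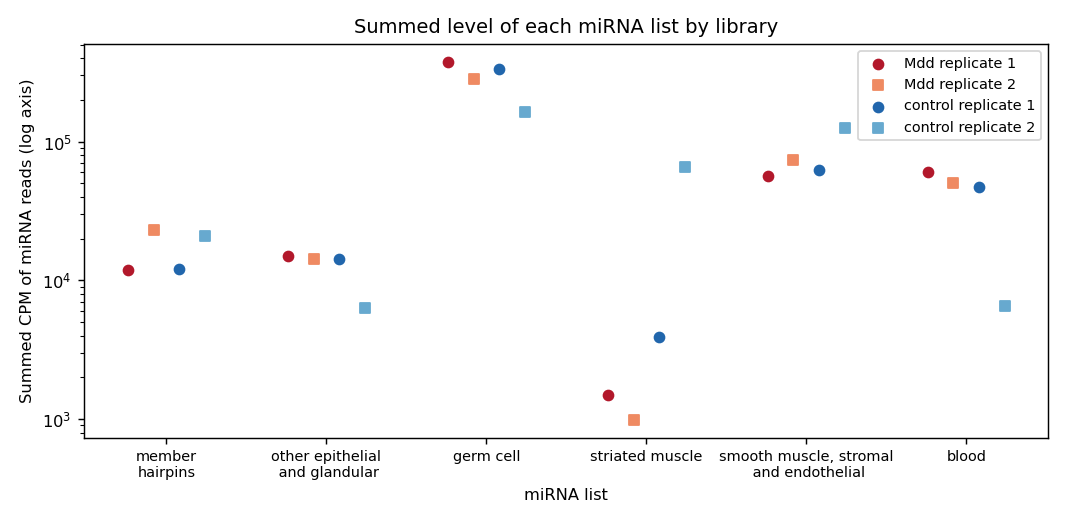
Summed level of the 9 members and of 5 lists of marker miRNAs in each library, in CPM of miRNA reads on a log axis. Member sums were highest in Mdd replicate 2 and control replicate 2. Control replicate 2 had the lowest germ cell and blood sums, the latter mostly miR-451a, and the highest striated muscle sum.

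Relative to the germ cell list, the members amounted to 3.15% and 8.28% in Mdd and to 3.61% and 12.9% in control. The same ratio for the other epithelial and glandular list was 3.98% and 5.08% in Mdd and 4.24% and 3.86% in control, a narrower range. The smooth muscle, stromal and endothelial list stood at 15.1% and 26.4% of the germ cell list in Mdd and 18.8% and 76.5% in control. Within each group this list, like the members, was higher in replicate 2. Its part in the members' level was not tested. Positive fold changes were fitted for 13 of 15 germ cell hairpins (2 with the library size of all RNA classes), 0 of 4 striated muscle, 2 of 6 smooth muscle, stromal and endothelial and 2 of 5 blood hairpins, and edgeR called 0 in each list with all libraries. Of the striated muscle hairpins it called 4 of 4 with the library size of all RNA classes, 2 of 5 without Mdd replicate 1, 4 of 5 without Mdd replicate 2, 4 of 5 without control replicate 1 and 0 of 4 without control replicate 2. It also called 1 of 7 smooth muscle, stromal and endothelial hairpins without control replicate 1. The median of the striated muscle list was -5.59 with all libraries and -2.42 without control replicate 2, and DESeq2 called 4 of its 4 hairpins.

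Among 93 other hairpins with a mean of at least 1000 CPM, those whose profile over the 4 libraries was closest to that of the summed members were miR-196a, miR-196b, miR-143, miR-181a and miR-151. Closeness was the root mean square difference of centred log2 CPM, which was 0.21 for miR-196a, 0.22 for miR-196b, miR-143 and miR-181a and 0.32 for miR-151. miR-196b, encoded in the Hox clusters, had 3674 and 7286 CPM in Mdd and 3143 and 8319 CPM in control. miR-143, a miRNA of smooth muscle, had 40900.3 and 55834 CPM in Mdd and 42808 and 63011 CPM in control. Of the members themselves, miR-429 was closest to their sum (0.25), followed by miR-200a and miR-200c (0.35 each), and miR-200b (1.52) and miR-205 (2.70) were farthest. All profiles share the same 4 libraries, and with 4 points likeness is only a description.

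The 79 sequences were used to read arms and ends. All 79 matched the genome according to the deposited mark, 16 were found in every library and 33 in 1 library only. RefSeq lists 18 arms for the 9 hairpins, and 15 of them had reads. Of the reads on arms, 97.2% began exactly at the RefSeq 5′ end, over all libraries together, and so kept the annotated seed. Single libraries fell well below this, with miR-183-5p at 91.0% in Mdd replicate 2 and 71.2% in control replicate 2. In the same way miR-205-5p stood at 53.8% of 13 reads in Mdd replicate 2. In control replicate 1 miR-200b-3p stood at 51.5% of 33 reads and miR-200c-3p at 84.7% of 118. In control replicate 2 miR-141-5p stood at 58.9% of 124 reads. A sequence usually had 8, 6 and 10 copies in these 3 libraries, so the lower totals may rest on few molecules. The 3p arm was the main one for miR-200a, miR-200b, miR-200c, miR-141 and miR-429, with 75.4% to 100% of their reads. The 5p arm was the main one for miR-182, miR-183, miR-96 and miR-205, with 79.4% to 100%.

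The arms of miR-141 differed between libraries. Its 3p arm took 2.17% (95% Wilson interval 0.742 to 6.20) and 92.4% (88.9 to 94.8) of reads in Mdd, and 100% (96.9 to 100) and 78.5% (75.0 to 81.7) in control. Mdd replicate 1 stood apart, with 3 reads of the 3p arm and 130 of the 5p arm, whereas the other Mdd library had 292 and 24, and the control libraries 121 and 0, and 453 and 124. The 130 reads were a single 18 nt sequence, which was also the main 5p sequence in Mdd replicate 2, with 24 reads, and in control replicate 2, with 73. It is shown with the seed of miR-141-5p in capitals.
miR-141-5p, 18 nt: cATCTTCCagtgcagtgt
The groups overlapped (exact permutation p = 0.667, two-sided), and without Mdd replicate 1 the difference in 3p share, Mdd minus control, was 3.15 percentage points in place of -41.97. The usual number of copies of a sequence in that library was 39, and the number of molecules behind the 130 reads was not measured.

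For miR-200a the 3p arm held 99.7% and 100% of reads in Mdd, against 83.7% and 93.8% in control. For miR-200c it held 100% in both Mdd libraries, against 94.4% and 93.7% in control. Both differences ran the same way, with 5p reads of 1 and 0 in Mdd and 17 and 76 in control for miR-200a, and 0 and 0 in Mdd and 7 and 23 in control for miR-200c. The groups did not overlap, and the exact permutation p was 0.333 for each, the smallest that 2 against 2 libraries allow. Among all miRNA hairpins whose 3p share varied, both Mdd libraries lay above both control libraries for 9 of 45, or 20%. Over all RNA classes, 1.18% and 1.27% of reads in Mdd and 24.4% and 27.0% in control had only 15 to 17 nt. This difference in read length runs with the groups, and its part in the arm shares cannot be told apart. The reads of miR-200a-5p and miR-200c-5p were themselves short, with mean lengths of 18.0 to 18.2 nt and of 19.0 nt in the libraries that held them. miR-182 showed 18.0% and 28.6% of reads on its 3p arm in Mdd and 27.6% and 16.2% in control, which overlapped.

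The 3′ ends varied more than the 5′ ends. miR-429-3p was read mainly as the RefSeq sequence and as a form 1 base shorter, shown with the seed in capitals.
miR-429-3p, RefSeq end: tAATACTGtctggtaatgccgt
miR-429-3p, 1 base shorter: tAATACTGtctggtaatgccg
The RefSeq form had 295 and 172 reads in Mdd and 87 and 903 in control. The shorter form had 397 and 281 reads in Mdd and 64 and 1015 in control. Together they made up most reads of the arm in every library, and the RefSeq 3′ end was present on 42.4% and 35.2% of reads in Mdd and 41.4% and 42.0% in control, a stable share for this miRNA.

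miR-96-5p ended at the RefSeq position in 31.9% and 78.7% of reads in Mdd and 29.9% and 22.8% in control (55.3% ± 33.1 and 26.3% ± 5.01, SD, n = 2 each). Mdd replicate 2 was far above the other 3 libraries, which lay near each other, and although the groups did not overlap the exact permutation p was 0.333. The 3 forms that made up most of the arm are shown with the seed in capitals.
miR-96-5p, RefSeq end: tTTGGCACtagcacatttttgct
miR-96-5p, 1 base shorter: tTTGGCACtagcacatttttgc
miR-96-5p, 2 bases shorter: tTTGGCACtagcacatttttg
The RefSeq form had 122 and 283 reads in Mdd and 23 and 85 in control. The form 1 base shorter had 126 and 43 reads in Mdd and 47 and 165 in control, and that 2 bases shorter 135 and 16 in Mdd and 7 and 77 in control.

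miR-200a-3p was read mostly as a form 1 base longer than RefSeq and as one 1 base shorter.
miR-200a-3p, 1 base longer: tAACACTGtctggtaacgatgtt
miR-200a-3p, 1 base shorter: tAACACTGtctggtaacgatg
The longer form had 257 and 236 reads in Mdd and 17 and 541 in control, and the shorter one 127 and 159 in Mdd and 63 and 468 in control. The RefSeq 3′ end itself was on 0.260% and 5.65% of reads in Mdd and 8.05% and 9.73% in control (exact permutation p = 0.333). miR-183-5p ended at the RefSeq base in 3.31% and 57.3% of reads in Mdd and 39.2% and 54.2% in control, with Mdd replicate 1 apart from the others. In that library 147 of 242 reads were 2 bases longer than RefSeq. miR-182-5p, which RefSeq lists at 25 nt, was mostly shorter, and its RefSeq end was on 0% and 15% of reads in Mdd and 0% and 17.5% in control.

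Of 19 arm and end shares of the members with enough reads, 4 were the same in every library and 15 varied. The groups did not overlap for 4 of these 15, or 26.7%, of which 3 were higher and 1 lower in Mdd. The same count over the arms and hairpins of all miRNAs with a single label was 51 of 167, or 30.5%, so the members' share was near the background. All 4 had an exact permutation p of 0.333 and a Benjamini-Hochberg adjusted p of 1 over the 19. None of these shares is thereby shown to differ between Mdd and control.

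**Figure D4:**
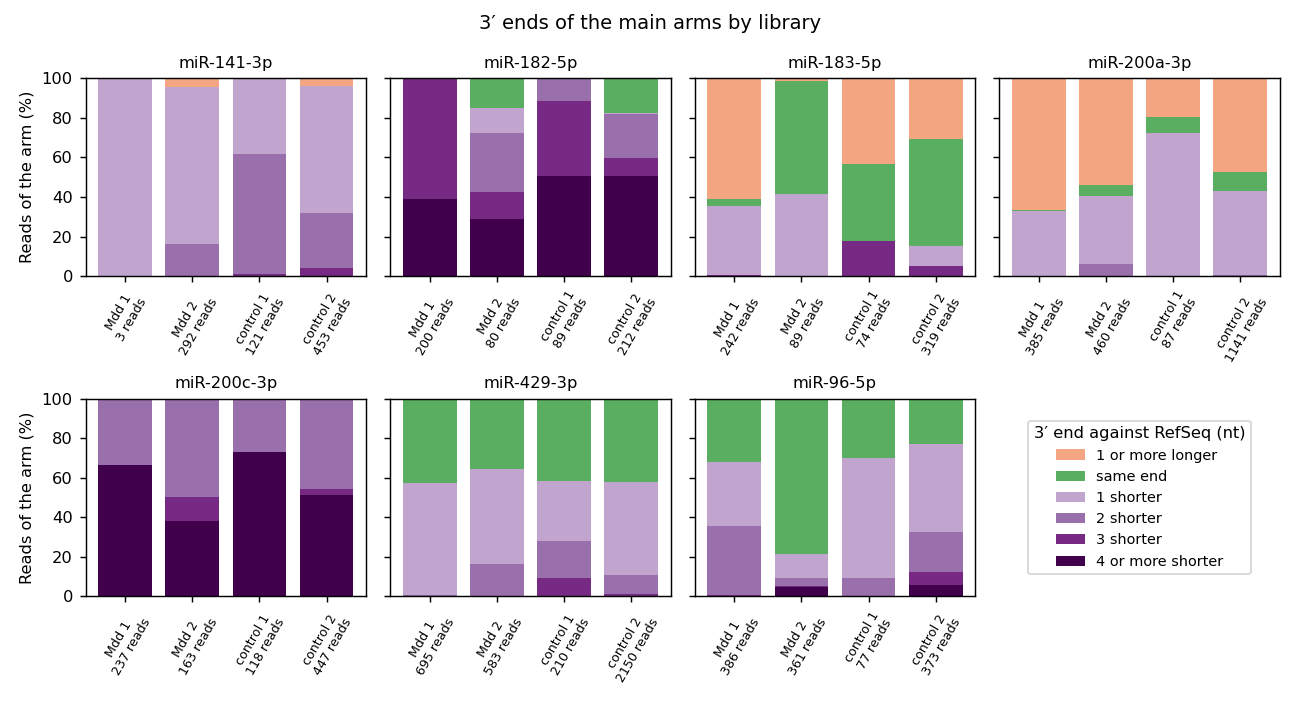
Share of the reads of each main arm that end before, at or after the RefSeq 3′ end, in percent, for each Mdd and control library, with the arm's reads under each bar. miR-429-3p kept its RefSeq end on 35.2% to 42.4% of reads, miR-96-5p reached 78.7% in Mdd replicate 2, and miR-200c-3p and miR-141-3p had 0% everywhere.

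Member arms whose RefSeq sequence ends in UGG or UGGA had no read that ended at the RefSeq 3′ end. This holds for 6 of the 18 arms, of which the main ones are shown with UGG in capitals.
miR-200c-3p: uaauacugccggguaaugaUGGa
miR-141-3p: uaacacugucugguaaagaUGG
miR-141-5p: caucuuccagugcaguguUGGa
miR-200a-5p: caucuuaccggacagugcUGGa
miR-200c-3p was read instead as a 19 nt form, which stops just before UGG, and as a 21 nt form.
miR-200c-3p, 19 nt: tAATACTGccgggtaatga
miR-200c-3p, 21 nt: tAATACTGccgggtaatgatg
The 19 nt form had 158 and 62 reads in Mdd and 86 and 230 in control, and the 21 nt form 79 and 81 in Mdd and 14 and 205 in control. The main form of miR-141-3p, 1 base short of RefSeq, had 3 and 232 reads in Mdd and 46 and 291 in control. Reads did run past the end, as a 24 nt form of miR-141-3p with 0 and 12 reads in Mdd and 0 and 17 in control shows. It is given with the seed in capitals.
miR-141-3p, 24 nt: tAACACTGtctggtaaagatggcc
In all, 0 of the 79 member sequences ended in TGG.

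The same held beyond the members. This grouping of arms by their ends was chosen after values had been seen. Of the RefSeq arms of all miRNAs with at least 50 reads, 10 end in UGG or UGGA, and 0 of these 10 had a fully matching read that ended at the RefSeq 3′ end. Only reads that begin at the RefSeq 5′ end were counted here. A median of 81.8% of these reads stopped directly before UGG in the 10 arms. In the 6 of them that are not members the median was 86.7%. The 4 members among the 10 arms had 100% (miR-141-5p), 81.9% (miR-200a-5p), 56.6% (miR-200c-3p) and 2.34% (miR-141-3p). Of all reads on the miR-141-5p arm, whatever their 5′ end, 81.7% stopped there. Another 9 arms, none of them a member, have UGG in the last 5 bases but a different end. All 9 had reads at the RefSeq end, on a median of 55.8% of reads. Among 157 arms with no UGG in the last 5 bases, 147 had reads at the RefSeq end, on a median of 39.0% of reads. All 7 member arms of this last kind did. Reads of any RNA class that end in TGG made up 0.0392% and 0.0377% of reads of 18 nt or longer in Mdd, and 0.0610% and 0.102% in control. This was the lowest of all 64 ends of 3 bases in every library, where the median end had 1.11% and 0.744% in Mdd and 1.21% and 1.16% in control. How adapters were trimmed is not given in the sources used here, and its part in these ends was not tested. Sequences under 18 nt were left out of all levels, and member reads of 15 to 17 nt were 0% and 0.817% of member reads in Mdd and 2.69% and 6.01% in control. Short reads of any RNA class were rarer in Mdd, at 1.18% and 1.27%, than in control, at 24.4% and 27.0%. With all lengths included the log2 ratio of the summed members was 0.13, against 0.09 for 18 nt or longer. Whether the difference in read length shaped the members' values in other ways was not tested.

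Forms with added 3′ bases lie outside the definition used so far, since they do not match the genome and are annotated as piRNA or not at all. A total of 52 sequences began at a member's RefSeq 5′ end, matched its hairpin for at least 18 bases and ended in 1 to 3 further bases. They held 379 and 222 reads in Mdd and 101 and 623 in control, which is 13.9% and 9.23% of all member reads with these included in Mdd and 10.4% and 10.1% in control. Only T was added on 66.9% of these reads and only A on 28.0%. The deposited annotation called 26 of the 52 sequences piRNA, with 67.8% of the reads. Whether sequencing errors contributed to these forms was not tested.

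miR-429, miR-96 and miR-200c had the most such reads, with 449, 364 and 321 in all. For miR-200c they were 30.3% and 27.2% of its reads in Mdd and 14.4% and 22.2% in control, and for miR-96 30.5% and 16.6% in Mdd and 11.5% and 23.3% in control. Both Mdd libraries were above both control libraries for miR-200c, and the groups overlapped for miR-96. The share of all hairpins that separate in this way was not measured, so the order for miR-200c does not show a change. miR-429 had 13.0% and 7.02% in Mdd and 10.3% and 11.4% in control. The most-read form of miR-200c, miR-96 and miR-429 is shown with the added base in capitals.
miR-200c-3p with an added base: taatactgccgggtaatgatggT
miR-96-5p with an added base: tttggcactagcacatttttgT
miR-429-3p with an added base: taatactgtctggtaatgccgtT
The form of miR-200c had 98 and 53 reads in Mdd and 10 and 95 in control, and it keeps the TGG that no templated member read ended in. A second form of miR-200c, the whole RefSeq sequence with an added T, had 1 and 0 reads in Mdd and 10 and 0 in control. The form of miR-96 had 124 and 37 reads in Mdd and 0 and 78 in control. The form of miR-429 had 5 and 31 reads in Mdd and 13 and 125 in control. With these reads added the log2 ratio of the summed members was 0.10, against 0.09 without them, an alternative chosen after seeing the data.

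**Figure D5:**
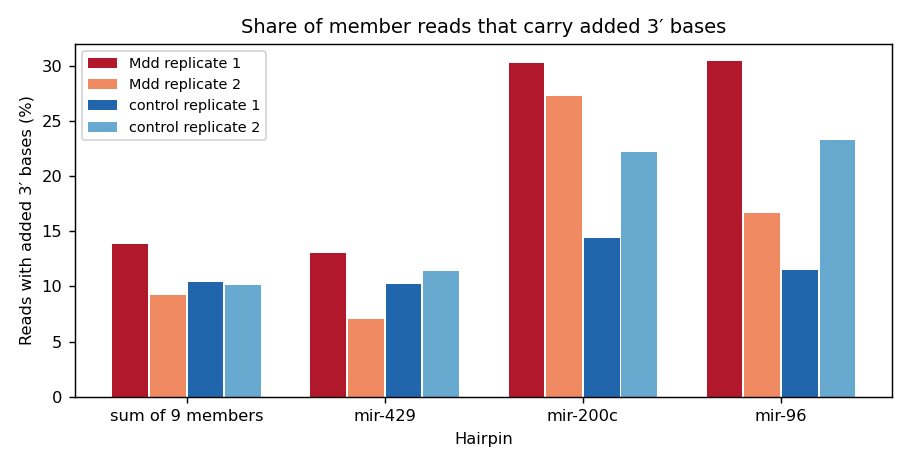
Share of member reads that carry 1 to 3 added 3′ bases, in percent of templated and added-base reads together, in each Mdd and control library. The shares of miR-200c were 30.3% and 27.2% in Mdd and 14.4% and 22.2% in control, and those of all 9 members 9.23% to 13.9%.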

How the data were processed

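Small RNA was sequenced in 2 Mdd and 2 control libraries. The authors deposited 1 line per distinct read sequence of 15 to 45 nt, holding its raw count, its length, whether it matched the genome and an annotation, per the file headers. These counts entered all sums unchanged. The submitters' processing notes name mm9 and DESeq2. How adapters were removed, which aligner was used and which databases gave the annotation is not given in the sources used here. No coordinates of the files were used, and printed positions are from GRCm38.p6.

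Reads of 18 nt or longer were summed per hairpin label over all miRNAs and tested with edgeR 4.0.16 (TMM, filterByExpr, quasi-likelihood, two-sided, Benjamini-Hochberg, threshold 0.05) in R 4.3.3. The fit was first run on simulated counts with known changes. Their spread between libraries was set in advance and not taken from these data, so that run does not show how often real changes would be called. SE is the log2 fold change over the root of F. CPM uses miRNA reads of 18 nt or longer. Summed levels were also put to an exact two-sided permutation test over libraries. With 2 against 2 libraries its p cannot fall below 0.333, and its p-values are not printed here. Arm and end shares, for arms with at least 50 reads in every library and hairpins likewise, were compared by exact two-sided permutation tests over libraries, and counted likewise over all miRNAs as background. Sequences were placed on RefSeq hairpins by exact match with Python 3.11.15, pandas 2.3.3 and scipy 1.17.1. Floors are 3 reads. The usual copy number is the mode of reads per genome-matched sequence beyond its first minimum.

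Named were all 9 members, per arm up to 3 main sequences where they carry a result, the 5 hairpins of most similar profile with a mean of at least 1000 CPM, and the marker lists. Members and lists were chosen with earlier results of these data known. Alternatives were RLE scaling, unscaled library size, the library size of all RNA classes, DESeq2 1.42.0, a minimum mean CPM of 10, no filter, all lengths, genome-matching sequences, the replicate block, each library left out and, chosen after seeing the data, reads with added bases.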

Additional observations from a re-analysis of the deposited data

Results flagged for a closer look

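Reads of miR-200c with added 3′ bases lie outside the main measurement, as sequences with no genome match and no miRNA annotation. They averaged 583 CPM in Mdd (518 and 649) and 404 CPM in control (292 and 516), above the control level. Reads of miR-96 with added 3′ bases also lie outside it and averaged 808 CPM in Mdd (849 and 766) and 284 CPM in control (139 and 428). Both Mdd libraries were above both control libraries for each, for miR-200c by the narrow margin of 518 in Mdd replicate 1 over 516 in control replicate 2. Neither difference was tested. Reads of miR-200b with added bases went the other way without overlap, with 1 and 0 reads in Mdd and 10 and 20 in control. How often all hairpins separate like this in reads with added bases was not measured, so no change is shown.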

How the results depend on the processing

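Of the hairpins tested, 0 were called in the main setting, under RLE scaling, at unscaled library size and for genome-matching sequences alone. The count was 5 with the library size of all RNA classes, 6 with no filter, 6 with a minimum mean CPM of 10, 7 with DESeq2 and 1 with all lengths, and 0 to 16 with 1 library left out (5 without Mdd replicate 1, 16 without Mdd replicate 2, 7 without control replicate 1, 0 without control replicate 2). The cause was not tested. No setting called a member, and the lowest adjusted p over 117 member values was 0.336, for miR-200b without Mdd replicate 2 (log2 fold change -3.59). With the replicate number as a block 4 hairpins were called and miR-141 stood at -0.28. Taken over all tested hairpins, same-numbered libraries did not deviate together (correlation -0.04 over 236 hairpins). The labels do not say whether they share more than a number, and this correlation cannot show it. The log2 ratio of the summed members was -1.14 with all reads as the denominator, where miRNA shares differ between libraries, and -0.48 to 0.54 with 1 library left out.

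Member fold changes kept their sign in 89 values and reversed in 28. The library size of all RNA classes moved the median of all hairpins to -1.10 and gave -1.23 for miR-200a, -1.30 for miR-141 and -0.22 for miR-205. miR-200b reversed to 0.0149 with RLE scaling, 0.0205 with no filter, 0.0199 with a minimum mean CPM of 10 and 0.0154 with DESeq2. miR-183 reversed to 0.12 with RLE scaling and DESeq2, 0.11 with no filter and a minimum mean CPM of 10, and 0.15 with all lengths. miR-182 reversed to 0.0034 with no filter, 0.0033 with a minimum mean CPM of 10 and 0.0475 with all lengths. With 1 library left out the values ranged from -0.57 to 1.35 for miR-200a, -3.59 to 0.85 for miR-200b and -1.28 to 0.74 for miR-141. They ranged from -0.88 to 0.85 for miR-429, -0.36 to 0.23 for miR-182 and -0.29 to 0.32 for miR-183. For each of these hairpins the sign turned without some libraries and held without others. For miR-205 the values were 0.12 to 6.84, and 2.31 with the block. Where 1 library is left out, the lone library of a group is assumed to vary like the other group. Of the arm and end shares, the 15 with a direction kept it in 75 values, fell to 0 in 1 (the RefSeq 5′ end of miR-200c-3p without control replicate 1) and reversed in 14, all with 1 library left out, where the difference in percentage points, Mdd minus control, ranged as follows. The RefSeq 5′ end share ranged from -3.26 to 0.236 for miR-182-5p, -4.91 to 23.9 for miR-183-5p, -1.30 to 1.59 for miR-200a-3p, -5.45 to 0.209 for miR-429-3p and -0.268 to 0.268 for miR-96-5p. The RefSeq 3′ end share ranged from -9.95 to 7.50 for miR-182-5p, -43.4 to 10.6 for miR-183-5p and -6.55 to 0.732 for miR-429-3p. The 3p arm share ranged from -87.1 to 3.15 for miR-141 and -4.34 to 7.10 for miR-182. At this depth miR-205, miR-200b in Mdd replicate 1 and the minor arms rest on few reads.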
